A study of Homo sapiens with 23 samples.

Results

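AGO2 is the Argonaute protein that can cut RNA, and the comparison described here is between HCT116 cells with the genotype *AGO2*-/- and wild-type HCT116 cells. HCT116 is a human colorectal carcinoma cell line. The samples were chosen by their genotype labels: 3 *AGO2* knockout libraries and 3 wild-type libraries, 6 of the 15 RNAseq libraries and of the 23 samples in the series. The knockout line was made by CRISPR editing of the same parental cells by a commercial service, and no drug or other agent was given to either group. Each genotype was represented by 1 line, so the effect of the genotype and that of the line cannot be told apart. The other RNAseq libraries were 3 each of lines lacking *AGO1*, both *AGO1* and *AGO2* (*AGO1/2* knockout), or all of *AGO1*, *AGO2* and *AGO3* (*AGO1/2/3* knockout), and they are used only to place the values of the *AGO2* knockout.

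Argonaute proteins hold microRNAs (miRNAs), short RNAs that pair with messenger RNAs mainly through the seed, bases 2 to 8 from their 5′ end. An Argonaute bound to a target brings in TNRC6 proteins and the CCR4-NOT deadenylase, which shorten the poly(A) tail and speed decay of the message. Of the human Argonautes AGO2 is the one known for robust slicing of a target that pairs with the small RNA along nearly its whole length, and AGO1, AGO3 and AGO4 bind largely the same miRNAs.

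The classic slicing target among human messages is *HOXB8*, a homeobox transcription factor gene. Its message holds a site for miR-196a that pairs along the full length of the miRNA. Both sequences are shown because they are the only nearly complete match described below. The miRNA is given with its seed in capitals, from RefSeq (GRCh38.p14). The site, at chr17:48612770-48612791 (GRCh38, minus strand, in the 3′-UTR of *HOXB8*), is given with the bases that form A-U or G-C pairs in capitals. Of 22 bases, 21 paired in this way and 1 formed a G-U pair.
hsa-miR-196a-5p: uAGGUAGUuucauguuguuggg
HOXB8 site: CCCAACAACATGAAACTgCCTA

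Estimated counts per library totalled 29140175 to 32381721 in wild-type cells and 40419152 to 45271146 in *AGO2* knockout cells. Levels are given as CPM, counts scaled to a common library size, after edgeR's TMM normalization, and fold changes on the log2 scale with their standard error (SE). All 15 libraries entered 1 fit in edgeR, and a gene was called where its quasi-likelihood p-value, adjusted by the Benjamini-Hochberg method, did not exceed 0.05. Every adjusted p given comes from that fit unless another is named, and as the 3 biological replicates of a genotype come from 1 line, it measures the spread between samples of these lines. The column headers of the 3 *AGO2* knockout files carry the word quasi and those of the other 12 do not. The headers do not say what the word means, and whatever it marks cannot be told apart from the genotype. Wild-type replicate 2 stood apart from the other 2: over genes that averaged 2 CPM or more it differed from their mean by a median of 0.26 on the log2 scale, against 0.14 and 0.21 for wild-type replicates 1 and 3 and 0.07 to 0.16 for the *AGO2* knockout libraries. Of 129 called genes chosen by the naming rule, 58 lost their call without it. Of 7 tested epithelial markers of colon carcinoma, *EPCAM* was called higher and *KRT18* lower, with at least 205 CPM of *EPCAM* and 347 CPM of *KRT18* in each of the 6 libraries. The call of *EPCAM* was lost with each of the 6 libraries left out. That of *KRT18* was lost without *AGO2* knockout replicates 1 or 3 or wild-type replicates 1 or 2. Of 12 leukocyte markers 6 were too low to be tested and none of the other 6 was called, and *CD68* and *LYZ* were between 0.0603 and 4.7 CPM in the 6 libraries.

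Loss of AGO2 alone was accompanied by changes in the RNA of many genes, most of them within 2-fold. Of 22823 genes tested outside chromosome Y, 1952 (8.55%) were called higher and 2447 (10.7%) lower in *AGO2* knockout cells. Counts of list members given below are to be read against these shares. Among the 4399 called genes (19.3%) the median size of the change was 0.72 on the log2 scale, and 69.9% changed by less than 2-fold. Of these, 201 genes were at least 2-fold higher and called, against 1122 that were at least 2-fold lower. A share of 44.4% of the calls was higher. With DESeq2's Wald test in place of edgeR the balance turned, with 2555 genes higher, 2344 lower and 52.2% of the calls higher. With no filter on low counts 2587 were higher and 2582 lower. When libraries were scaled by their total counts alone, the median of all genes moved by -0.12, 733 genes were called higher (3.21%) and 3583 lower (15.7%), and the share of higher calls fell to 17%. Without wild-type replicate 2 the calls were 494 higher (2.11%) and 1370 lower (5.86%). Without *AGO2* knockout replicate 2 they were 389 and 1131, without replicate 3 they were 506 and 1313, and without wild-type replicate 1 they were 1074 and 2280. In a fit of the 6 libraries alone they were 528 (2.43%) and 1331 (6.12%).

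Many of the changes set the *AGO2* knockout apart from every other line. For 1072 genes (4.7%) the 3 *AGO2* knockout libraries lay above all 12 others, and for 780 (3.42%) they lay below all of them. In either direction this was 8.11% of genes, against 2.33% for *AGO1/2*, 5.62% for *AGO1* and 22.5% for *AGO1/2/3* knockout cells and 3.58% for wild-type cells. Of the called genes, 1261 (28.7%) fell outside all 12 other libraries in the direction of the call. By construction no library of the *AGO1/2* knockout, which also lacks AGO2 but has the header of the other lines, reached the *AGO2* knockout values of these genes.

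RNA from the targeted gene itself was reduced but not lost. *AGO2* (ENSG00000123908, chromosome 8 from 140520156 to 140635633) had 379, 459 and 382 CPM in the wild-type libraries and 262, 314 and 283 CPM in the *AGO2* knockout libraries. The groups did not overlap, and all 3 knockout values lay below every other library of the series. The difference was -0.51 (SE 0.10, adjusted p = 0.00518), and it held with each of the 6 libraries left out in turn. In *AGO1/2* knockout cells, where the same gene was edited, the mean was 339 CPM and the difference from wild type was -0.26 (adjusted p = 0.0924). In *AGO1/2/3* knockout cells, where it was edited too, *AGO2* RNA was higher than in wild type, at a mean of 538 CPM (0.40, adjusted p = 0.00477).

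None of the other Argonaute genes rose past the threshold. *AGO1* had 138, 108 and 146 CPM in wild-type and 160, 158 and 161 CPM in *AGO2* knockout cells. The groups did not overlap, yet the difference of 0.29 (SE 0.12) missed the threshold (adjusted p = 0.0932). *AGO3* differed by -0.05 (SE 0.12, adjusted p = 0.775). *AGO4* fell from 21.9, 28.5 and 24.8 CPM to 20.3, 10.8 and 15.2 CPM, a difference of -0.70 (SE 0.23, adjusted p = 0.0457). That call was lost when *AGO2* knockout replicates 2 or 3 or wild-type replicates 2 or 3 were left out, with adjusted p from 0.0569 to 0.17.

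Among the partners of Argonaute, the scaffold gene *TNRC6A* was higher, with 118, 94.6 and 121 CPM in wild-type and 135, 189 and 161 CPM in *AGO2* knockout cells (log2 difference 0.54, SE 0.16, adjusted p = 0.0335). This call was lost without *AGO2* knockout replicates 2 or 3 or wild-type replicates 1 or 2 (adjusted p from 0.0644 to 0.183). Its relatives *TNRC6B* and *TNRC6C* differed by -0.00 (SE 0.11) and -0.04 (SE 0.10), with adjusted p of 0.988 and 0.789.

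*DICER1*, which encodes the nuclease that cuts miRNAs from their hairpin precursors, showed a clearer increase. It had 95.4, 104 and 106 CPM in wild-type cells and 157, 204 and 182 CPM in *AGO2* knockout cells, with no overlap, a difference of 0.83 (SE 0.11, adjusted p = 0.000221). Its call was kept with each library left out. In *AGO1* knockout cells *DICER1* differed from wild type by 0.34 (adjusted p = 0.0607).

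Of 25 tested genes of miRNA processing and turnover, 8 were called higher and 1 lower, with a median of 0.28 against -0.02 over all genes tested. Beside *DICER1* they included the HSP90 chaperone genes *HSP90AA1* (0.90) and *HSP90AB1* (0.82) and the co-chaperone gene *PTGES3* (0.70), whose products help load small RNAs onto Argonaute. Wild-type replicate 2 was lowest in all 3, with 1270 CPM of *HSP90AA1* against 2740 and 3330 in the other wild-type libraries. Without it 1 member was called higher, without *AGO2* knockout replicates 2 or 3 likewise 1, and without *AGO2* knockout replicate 1 or wild-type replicate 1 there were 4. By total counts alone there were 2. *ZSWIM8*, which encodes the ubiquitin ligase receptor of target-directed miRNA decay, was the member called lower (-0.81). Of 32 genes of deadenylation and decapping, 6 were higher (*LSM1*, *DCP2*, *CNOT9*, *CNOT11*, *DDX6* and *PATL1*, by 0.38 to 0.52) and 3 were lower (*BTG1*, *PAN2* and *BTG2*). Over all genes tested 8.55% were called higher and 10.7% lower. Without *AGO2* knockout replicates 2 or 3 no member was called higher, and without wild-type replicates 1 and 2 the counts were 1 and 2. By total counts alone the balance turned, with 1 higher and 5 lower, and the median went from 0.10 to -0.02. *BTG1* went from -1.48 to -0.85 without wild-type replicate 2 (adjusted p = 0.0755).

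Some of the largest increases were seen in the *AGO2* knockout libraries and in none of the 12 others. *NEUROD2*, a neuronal transcription factor gene (chromosome 17 from 39603536 to 39609777), had 2.54, 3.19 and 2.02 CPM in wild-type and 58.7, 56.1 and 59.2 CPM in *AGO2* knockout cells. The knockout values were close to each other and above the 2.02 to 3.36 CPM of the 12 other libraries. The difference was 4.49 (SE 0.16, adjusted p = 4.8e-10), or 22.5-fold. No other annotated gene overlaps *NEUROD2*.

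*FGF23*, which encodes a hormone of phosphate balance, followed the same pattern. It rose from 6.92, 5.99 and 6.54 CPM to 40.3, 36.3 and 35.9 CPM (2.53, SE 0.12, adjusted p = 5.62e-09), and the 12 other libraries held 5.99 to 8.74 CPM. *RPS6KA6*, a ribosomal S6 kinase gene on the X chromosome, rose from 1.82, 1.63 and 1.42 CPM to 11.3, 11 and 10.7 CPM (2.76, SE 0.19, adjusted p = 5.71e-07). *CABYR*, a calcium-binding protein gene best known from sperm, rose from 0.47, 0.51 and 0.452 CPM to 5.89, 5.28 and 4.81 CPM (3.47, SE 0.24, adjusted p = 5.96e-07). In all 3 genes the *AGO2* knockout libraries formed a tight cluster above every other library.

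Increases were also called for *GALNT5*, an enzyme gene that starts O-linked glycosylation (2.12), and for *GASK1B* (1.98), *KIAA0319* (1.64), *SECTM1* (1.53) and *KCNJ3*, a potassium channel subunit gene (1.45). *PALLD*, which encodes the actin-bundling protein palladin, had 206, 147 and 226 CPM in wild-type and 551, 540 and 504 CPM in *AGO2* knockout cells (1.46, SE 0.14, adjusted p = 1.56e-05). *AGO1* knockout cells also had more *PALLD* than wild type (454 CPM, 1.23, adjusted p = 6.1e-05).

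The entry for *SMIM11* is uncertain. *SMIM11* (1.62, adjusted p = 0.0491) has a near-identical annotated copy, and its call was lost with any library but wild-type replicate 2 left out (adjusted p from 0.0632 to 0.144). Its difference was 2.85 without wild-type replicate 2.

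**Figure D1:**
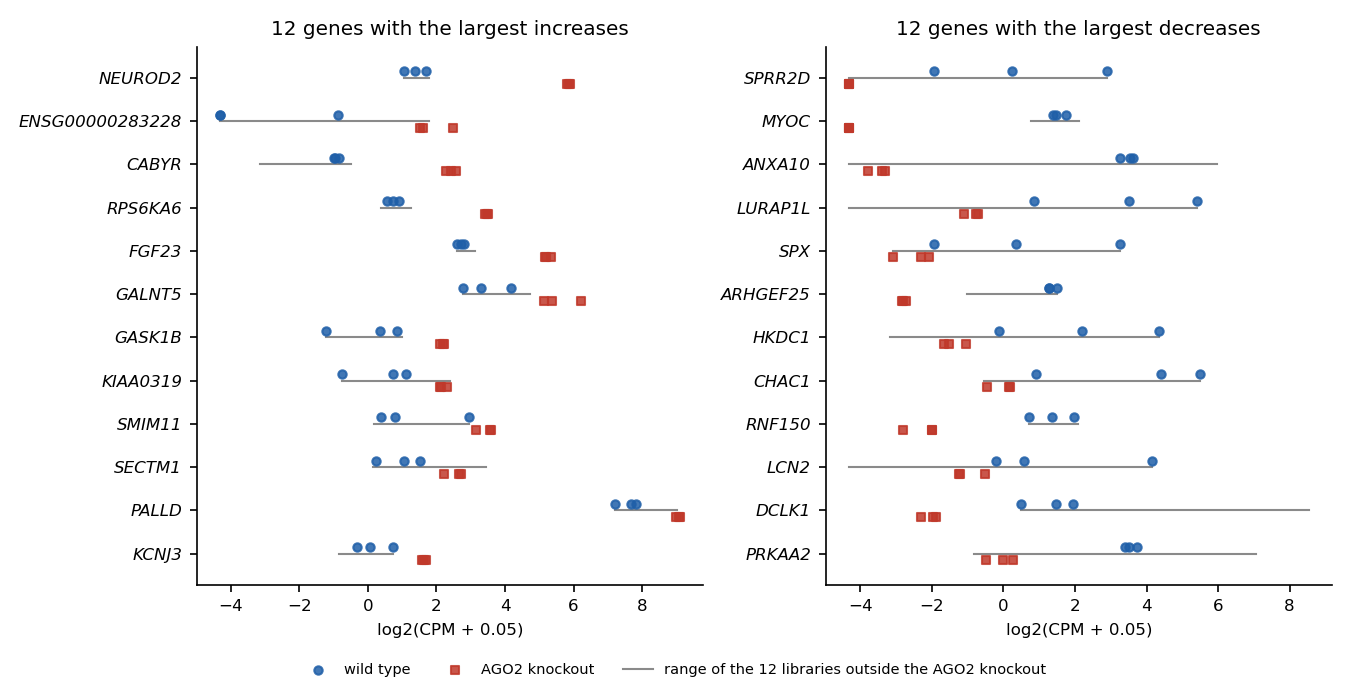
The plot gives log2(CPM + 0.05) of the 12 protein-coding genes with the largest increases (left) and the 12 with the largest decreases (right), chosen by the rule for named genes, with each of the 3 wild-type libraries as a blue circle and each of the 3 *AGO2* knockout libraries as a red square. Grey lines span all 12 libraries outside the *AGO2* knockout, and *NEUROD2*, *FGF23*, *RPS6KA6* and *MYOC* can be seen to separate from the whole grey range, while *ANXA10* and *PRKAA2* do not.

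Decreases reached the floor of detection. *MYOC*, which encodes myocilin, a secreted protein of the eye's outflow tissue, had 82, 104 and 90 counts in the wild-type libraries and 0 counts in all 3 *AGO2* knockout libraries. Every other library of the series held 52 to 131 counts. Against a floor of 3 counts per library, 0.0708 CPM on average, it was at least 40.5-fold lower (adjusted p = 6.93e-06). *MYOCOS*, which overlaps it on the opposite strand, had 0.301 CPM in wild-type and 0.133 CPM in *AGO2* knockout cells. Floors and intervals of this kind cover counting error only.

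*ANXA10*, a calcium-dependent membrane-binding protein gene of the annexin family, had 303, 362 and 409 counts in wild-type and 2, 1 and 2 counts in *AGO2* knockout cells. The ratio was 284 with a 95% exact counting interval of 121 to 875 (adjusted p = 1.33e-09). Here the *AGO1/2* knockout was low too, at a mean of 0.0697 CPM, while *AGO1* knockout cells had 51.0 CPM. With 0.017 CPM in *AGO1/2/3* knockout cells, *ANXA10* was low in every line that lacks AGO2.

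*PRKAA2*, the α2 catalytic subunit of AMP-activated kinase, fell from 11.3, 13.3 and 10.6 CPM to 1.16, 0.671 and 0.937 CPM (-3.66, SE 0.18, adjusted p = 1.32e-08). *AGO1* knockout cells were equally low (0.76 CPM), and *AGO1/2* knockout cells were at the wild-type level (11.8 CPM). *DCLK1*, a microtubule-associated kinase gene, fell from 1.35, 3.82 and 2.74 CPM to 0.224, 0.208 and 0.152 CPM (-3.72, SE 0.38, adjusted p = 4.05e-05), and it was higher in *AGO1/2* knockout cells (41.1 CPM). *ARHGEF25*, a guanine nucleotide exchange factor gene (-4.67), and *RNF150*, a ring finger protein gene (-3.97), were below all other libraries. By the rule that chose these 4 genes, their 3 knockout libraries did not overlap the 3 wild-type libraries.

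The remaining large decreases were in genes that wild-type replicate 2 expressed most. *SPRR2D* (a cornified envelope gene), *LURAP1L*, *SPX*, *HKDC1* (a hexokinase-like gene), *CHAC1* (a glutathione-degrading enzyme gene) and *LCN2* (lipocalin) were each highest in that library. *LCN2*, for example, had 1.44, 17.8 and 0.814 CPM in wild-type and 0.649, 0.37 and 0.38 CPM in *AGO2* knockout cells. Its difference was -3.82 (adjusted p = 0.00981), and -1.28 (adjusted p = 0.0496) without wild-type replicate 2. The difference of *SPX* went from -4.73 (adjusted p = 0.0142) to -2.41 (adjusted p = 0.133) without that library. *LURAP1L* went from -5.19 to -3.73 and *HKDC1* from -4.67 to -3.03, both still called. *SPRR2D*, with 36, 232 and 7 counts in wild-type and 0 counts in all *AGO2* knockout libraries, was at least 41.1-fold lower against 3 counts per library (adjusted p = 0.0225), a call lost without *AGO2* knockout replicates 2 or 3 (adjusted p of 0.0695 and 0.0601).

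RNA of mesenchymal and extracellular matrix genes was lower in *AGO2* knockout cells. Of 40 tested members, 21 were called lower and 2 higher, against 10.7% and 8.55% of all genes. The median was -0.84, against -0.02 over all genes. The 3 *AGO2* knockout libraries had median deviations from the wild-type mean of -0.73, -0.88 and -0.90, and the 3 wild-type libraries ranged from -0.11 to 0.13. Without wild-type replicate 2, 18 were lower and 1 higher with a median of -0.66, and leaving out each of the 6 libraries gave 15 to 22 lower.

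Secreted matrix genes were among the largest decreases. *TIMP3*, an inhibitor of matrix metalloproteinases, had 2.54, 2.87 and 3.59 CPM in wild-type and 0.537, 0.255 and 0.38 CPM in *AGO2* knockout cells (-2.92, SE 0.28, adjusted p = 2.16e-05). *SPARC*, a collagen-binding matrix protein gene, went from 1.44, 1.24 and 2.38 CPM to 0.246, 0.0463 and 0.304 CPM (-3.08, SE 0.64, adjusted p = 0.00615). *COL1A1*, the α1 chain of type I collagen, went from 24.1, 27.5 and 20.2 CPM to 10.8, 9.63 and 11.4 CPM (-1.17, SE 0.16, adjusted p = 0.000454). All 3 were called with each library left out. For *TGFBI*, a matrix protein gene induced by TGF-β, and *CDH2*, N-cadherin, the knockout libraries summed to 6 and 2 counts, giving ratios of 9.68 (95% exact counting interval 4.11 to 27.8) and 22.4 (5.75 to 193).

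Called members with other roles included the transcription factor gene *TWIST1* (-1.59), the smooth muscle actin-binding gene *TAGLN* (-1.48), the matricellular growth factor gene *CCN2* (-1.96, and -1.29 without wild-type replicate 1), and vimentin, *VIM* (-0.76). The call of *VIM* was lost when any library but wild-type replicate 2 was left out (adjusted p from 0.0664 to 0.138). The 2 members called higher were the matrilysin gene *MMP7* (1.35) and *COL12A1* (1.03), the latter not called without *AGO2* knockout replicate 2 or wild-type replicate 2. *AGO1* knockout cells had list medians of -0.63, -0.34 and 0.04 by library, and *AGO1/2* knockout cells 0.07 to 0.22. Of 8 tested markers of fibroblasts and endothelium, none was called higher and 3 lower (*PDGFRB*, *VWF* and *COL1A1*, the last of which is in both lists). *PDGFRB* summed to 4 counts in the knockout libraries and reached at most 0.564 CPM in wild-type cells, and *VWF* at most 0.752 CPM. In bulk RNA, fewer cells of a type and less RNA per cell cannot be told apart, and the part of such cells in the result was not tested.

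**Figure D2:**
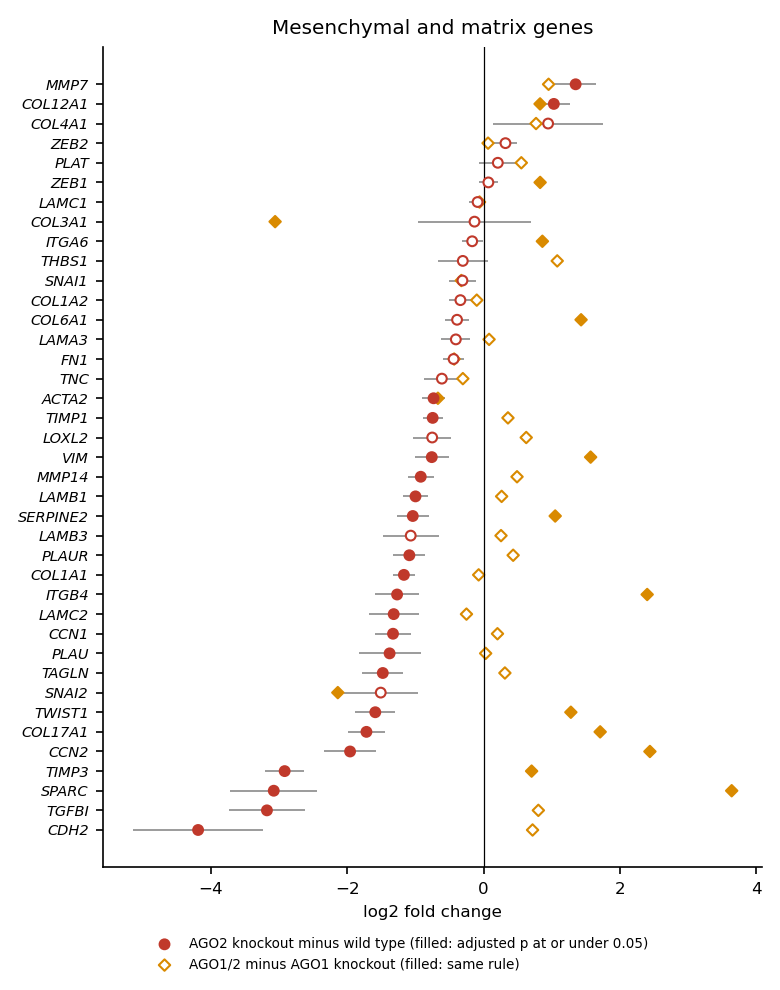
The plot gives the log2 fold change of the tested mesenchymal and matrix genes, with 1 of the 40 left out, in *AGO2* knockout minus wild-type cells (red circles with their standard error) and in *AGO1/2* minus *AGO1* knockout cells (orange diamonds), filled where the adjusted p was at or under 0.05. Filled red circles lie left of 0 except those of *MMP7* and *COL12A1*, and most filled orange diamonds lie right of 0.

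Genes of the EGF receptor ligands and of the feedback on ERK signalling, the kinase cascade below that receptor, were also lower. Of 30 tested members, 10 were called lower and 1 higher, against 10.7% and 8.55% of all genes, and the median was -0.57. The count of lower members was 9 without wild-type replicate 2 and ranged from 7 to 17 over the 6 libraries left out, with 17 without wild-type replicate 3. The ligand gene *AREG* (amphiregulin) had 378, 554 and 239 CPM in wild-type and 165, 146 and 131 CPM in *AGO2* knockout cells (-1.41, SE 0.26, adjusted p = 0.00336). The ligand gene *HBEGF* had 14.8, 33.2 and 7.33 CPM and 4.1, 5.28 and 3.9 CPM (-2.06, SE 0.42, adjusted p = 0.00594). Among the feedback phosphatases, *DUSP5* fell from 263, 443 and 167 CPM to 86.8, 87.0 and 71.8 CPM (-1.83, SE 0.32, adjusted p = 0.00241), and *DUSP6* (-1.27) and *DUSP4* (-1.08) were lower too. None of these ligands and *DUSP5* overlapped between the groups, and the calls of *AREG*, *HBEGF* and *DUSP5* were kept with each library left out, though *HBEGF* went to -1.35 without wild-type replicate 2. The call of *DUSP4* was lost without that library and without *AGO2* knockout replicates 2 or 3 (adjusted p from 0.0812 to 0.0923). The cell cycle gene *CCND1* was the member called higher (0.62). *AGO1* knockout cells, which keep AGO2, had list medians of -0.43, -0.35 and -0.23 by library, against -0.50, -0.53 and -0.52 in *AGO2* knockout cells. In *AGO1/2* over *AGO1* knockout cells 7 members were called higher and 1 lower, with a median of 0.18.

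Genes of ATF4 and of the endoplasmic reticulum stress response were lower in the comparison as a whole, but the count fell to 2 without wild-type replicate 2. ATF4 is a transcription factor made when translation initiation is slowed by amino acid shortage or unfolded proteins, and it turns on genes of amino acid supply. Of 42 tested members, 16 were called lower and 2 higher, against 10.7% and 8.55% of all genes, and the median was -0.78. Wild-type libraries 1 to 3 deviated from their own mean by medians of 0.12, 0.59 and -0.67, and *AGO2* knockout libraries by -0.82, -0.62 and -0.58. The third wild-type library thus lay within the range of the knockout. Without wild-type replicate 2, 2 members were lower and none higher, with a median of -0.48. Without wild-type replicate 3, 33 were lower, and without *AGO2* knockout replicates 1, 2 and 3 the counts were 9, 2 and 5. Without wild-type replicate 1 there were 9.

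Promoter sequences of 37 of these genes were in the RefSeq table (GRCh38.p14, 250 bases before to 50 after the start). The element read by ATF4, spelled TGATGNAA and searched on both strands, was found in 6 (16.2%), against 3.67% of all 27305 promoters. Windows are shown for members called lower, with the match in capitals, at chr15:40953252-40953279 for *CHAC1*, chr7:97872459-97872486 for *ASNS* (asparagine synthetase), chr1:212565206-212565233 for *ATF3* and chr16:56931956-56931983 for *HERPUD1*, on each gene's own strand. The call of *HERPUD1* was lost without *AGO2* knockout replicate 2 or wild-type replicate 2. A match is a description of these letters only.
CHAC1: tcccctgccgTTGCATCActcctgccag
ASNS: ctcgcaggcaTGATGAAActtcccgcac
ATF3: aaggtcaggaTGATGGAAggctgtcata
HERPUD1: acgcggcgggTTGCATCAgcccgtgccc

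*CHAC1* had 21.3, 45.1 and 1.84 CPM in wild-type and 0.672, 1.09 and 1.06 CPM in *AGO2* knockout cells (-4.59, SE 0.98, adjusted p = 0.00714). Wild-type replicate 3 lay nearest to the knockout, and without wild-type replicate 2 the difference was -3.65 (adjusted p = 0.027). *TRIB3*, a pseudokinase gene induced by ATF4, had 99.6, 135 and 18.0 CPM and 15.0, 17.9 and 16.6 CPM (-2.35, adjusted p = 0.0335). Its call was lost when any library but wild-type replicate 3 was left out (adjusted p from 0.0667 to 0.121). *ASNS* (-2.25) and *DDIT3* (-1.95) were called lower as well, and both lost their call without the same libraries as *TRIB3* (adjusted p from 0.0626 to 0.147).

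Targets of p53 showed 10 lower and 1 higher of 37, against 10.7% and 8.55% of all genes. Their median was -0.11, and 5 were lower without wild-type replicate 2. One of the 10, the stress gene *SESN2* (-2.32), is also induced by ATF4 and stands in both lists. It was at -1.44 without wild-type replicate 2 (adjusted p = 0.0804). *GDF15*, a stress-induced secreted factor gene, had 133, 298 and 61.4 CPM in wild-type and 32.9, 24.8 and 46.1 CPM in *AGO2* knockout cells (-2.25, SE 0.47, adjusted p = 0.00638), and without wild-type replicate 2 its difference was -1.52 (adjusted p = 0.0243). *CDKN1A*, the p21 cell cycle inhibitor, was called lower too (-0.78), though not without wild-type replicate 2 or *AGO2* knockout replicate 2. *SPATA18*, a gene of mitochondrial quality control, had 11, 13 and 11 counts in wild-type and 0 counts in all *AGO2* knockout libraries, at least 5.13-fold lower against 3 counts per library, and it was also at 0.0123 CPM in *AGO1/2* knockout cells. Without *AGO2* knockout replicate 2 the list had 4 lower, and without replicate 3 it had 6.

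Lists of growth-related genes had calls in the other direction. The paper reports slower growth of *AGO2* knockout cells than of wild-type cells, and a link between these calls and growth was not tested. Of 46 tested DNA replication genes 15 were called higher and none lower, with a median of 0.80. Of 39 replication-dependent histone genes 9 were higher, of 47 ribosome biogenesis genes 18, and of 76 nuclear genes of oxidative phosphorylation 12, with medians of 0.77, 0.39 and 0.31 and none lower in any of them. Without wild-type replicate 2 each of these 4 lists had 1 gene called higher, with medians of 0.46, 0.43, 0.31 and 0.14. Without *AGO2* knockout replicate 2 the counts were 0, 1, 0 and 1, and without replicate 3 they were 0, 0, 0 and 1. Without wild-type replicate 1 they were 14, 20, 4 and 4, without replicate 3 they were 22, 6, 12 and 23, and without *AGO2* knockout replicate 1 they were 10, 4, 19 and 9. By total counts alone they were 7, 2, 4 and 5. Because of this spread the genes below are given by their values. In *AGO1/2* over *AGO1* knockout cells, 11.6% of all genes were called higher and 7.96% lower. There, no DNA replication or histone gene of these lists was called in either direction, with medians of -0.08 and -0.23. Of the ribosome biogenesis genes 0 were higher and 18 lower, and of the oxidative phosphorylation genes 1 and 13, with medians of -0.35 and -0.16.

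*MCM2*, part of the replicative helicase, had 121, 38.1 and 126 CPM in wild-type and 185, 199 and 197 CPM in *AGO2* knockout cells (1.03, adjusted p = 0.0491). *GINS2*, a helicase partner, had 31.4, 9.66 and 38.9 CPM and 56.5, 71.6 and 63.1 CPM (1.26, adjusted p = 0.0367). Wild-type replicate 2 was the lowest library for both genes, yet the knockout libraries also lay above the other 2 wild-type libraries. Without it the differences were 0.62 (adjusted p = 0.13) for *MCM2* and 0.83 (adjusted p = 0.0989) for *GINS2*, and both calls were kept only when wild-type replicate 3 was left out. Over the whole DNA replication list the wild-type libraries deviated by medians of 0.47, -0.97 and 0.45 and the knockout libraries by 0.81, 0.99 and 0.96. In 40 of the 46 members the 3 knockout libraries lay above the 3 wild-type libraries, against 18.5% of all genes tested.

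Of 38 of these genes with a promoter in the table, 20 (52.6%) held the E2F element spelled TTTCCCGC, TTTGGCGC, TTTGCCGC or TTTCGCGC on either strand, against 3.33% of all promoters. The windows of 4 called members are shown with the match in capitals, at chr3:127598403-127598430 (*MCM2*), chr2:135876578-135876605 (*MCM6*), chr16:85688968-85688995 (*GINS2*) and chr19:4909477-4909504 (*UHRF1*). None of these 4 genes was called without *AGO2* knockout replicate 2 or 3. The share of 52.6% covers members of the list whether called or not. A match is a description of these letters only, and a role of E2F in the changes was not tested.
MCM2: gtgaaccactTTTCGCGCgaaacctggt
MCM6: gggctttgcaTTTGGCGCgaaatccctt
GINS2: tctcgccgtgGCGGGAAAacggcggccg
UHRF1: ccgagttttcGCGGGAAAaaaatcagag

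Mitosis and G2/M genes had a median of 0.52, but 1 of 46 was called (*BUB3*, 0.43, a call lost with each library left out), and the median was 0.27 without wild-type replicate 2. Cytosolic ribosomal protein genes, 79 tested, had a median of -0.05, with 1 called lower (*RPS4X*, -0.32) and 9 by total counts. In *AGO1/2* over *AGO1* knockout cells 74 of these 79 were called lower and 0 higher, with a median of -0.49. The mitochondrially encoded protein genes had a median of 0.01 (-0.11 by total counts), with *MT-ND1* called higher (0.33) and *MT-ND4L* lower (-0.40) of 13. The call of *MT-ND1* was lost with each library left out, and by total counts none was higher and 2 were lower. Among 40 interferon-stimulated and RNA-sensing genes, 4 were higher (*TLR3*, *CMPK2*, *IFIT2* and *IFIT5*) and 1 lower (*ISG20*), with a median of 0.03 (-0.09 by total counts), and none was called in either direction without wild-type replicate 2. By total counts 2 were higher and 2 lower. The same list had 28 members called higher in *AGO1/2* over *AGO1* knockout cells.

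**Figure D3:**
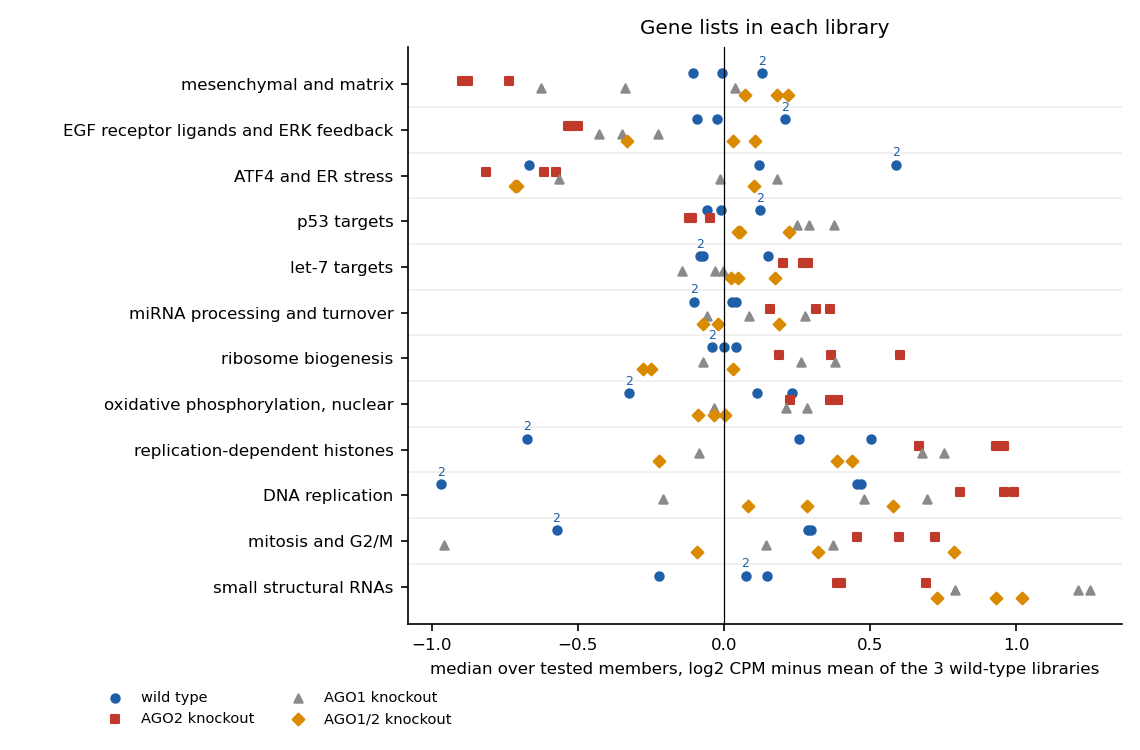
The plot gives, for 12 gene lists, the median over tested members of log2 CPM minus the mean of the 3 wild-type libraries, with 1 symbol for each library of wild-type, *AGO2*, *AGO1* and *AGO1/2* knockout cells and wild-type replicate 2 marked by its number. The mesenchymal list separates the *AGO2* knockout from all libraries shown, whereas for DNA replication the position of wild-type replicate 2 at -0.97 sets much of the distance from the wild-type mean.

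The epithelial junction and keratin list had 4 higher and 8 lower of 50, with a median of -0.08. The counts were 1 and 4 without *AGO2* knockout replicate 3, 1 and 5 without wild-type replicate 2, and 1 and 12 by total counts. *KLF4*, a transcription factor gene of epithelial differentiation, fell from 34.4, 66.8 and 35.2 CPM to 11.8, 13.5 and 11.4 CPM (-1.89, SE 0.34, adjusted p = 0.00292). *PKP3*, a desmosomal plakophilin gene, fell from 41.7, 40.2 and 49.5 CPM to 24.5, 21.6 and 24.3 CPM (-0.90, SE 0.13, adjusted p = 0.000708). Both were called with each library left out. WNT targets had 1 higher (*CCND1*) and 3 lower (*NKD2*, *RNF43* and *SOX9*) of 23. None was called without *AGO2* knockout replicate 2, and 5 were lower without wild-type replicate 2. The YAP and Hippo list had 4 higher and 3 lower of 30, close to the 8.55% and 10.7% of all genes, and 1 higher and 6 lower by total counts. The members called lower were the YAP target genes *ANKRD1*, *CCN2* and *CCN1*, and 1 was higher without *AGO2* knockout replicate 2 or 3 or wild-type replicate 1 or 2.

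Cholesterol synthesis genes had 2 higher and none lower of 25 with a median of 0.47, and 12 were higher without wild-type replicate 3 and none without wild-type replicate 2. Glycolysis and hypoxia genes had 2 higher and 1 lower of 38 (none and 2 by total counts), and 26 were higher without wild-type replicate 3 and none without wild-type replicate 2. NRF2 targets had 1 higher and 2 lower of 29 (1 and 5 by total counts). The transporter gene *ABCC3* had 44, 168 and 40.2 CPM in the wild-type libraries, and its difference was -2.58 (adjusted p = 0.00746), or -1.60 (adjusted p = 0.0324) without wild-type replicate 2. Of 5 tested neuronal markers, none was higher and 2 were lower (*SNAP25* and *MAP2*), in the same cells in which *NEUROD2* rose. Both calls were lost in at least 3 of the 6 fits with a library left out, *AGO2* knockout replicate 2 among them, and *SNAP25* went from -2.17 to -2.95 without *AGO2* knockout replicate 3.

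Long noncoding RNAs and pseudogenes were more often called lower than higher, and the classes of small nuclear and nucleolar RNAs more often higher. Of 4810 tested long noncoding RNAs (lncRNAs), 2.43% were called higher and 8.98% lower, with a median of -0.15, whereas 11.4% of 14822 protein-coding genes were higher and 11.5% lower, with a median of 0.03. Of 832 processed pseudogenes 1.68% were higher and 7.09% lower, and of 160 unprocessed pseudogenes 1.88% and 17.5%, so that reads shared with the parent genes make single pseudogenes uncertain. Of 107 snRNAs 17.8% were higher and 4.67% lower, of 194 snoRNAs 15.5% and 11.9%, and of 334 RNAs annotated as miscellaneous 7.19% and 2.99%. The share of counts assigned to lncRNAs was 3.63% to 5.61% in wild-type and 3.12% to 3.58% in *AGO2* knockout libraries.

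Among lncRNAs, *NEAT1*, the scaffold of nuclear paraspeckles, fell from 1130, 1530 and 1070 CPM to 543, 352 and 431 CPM (-1.49, SE 0.31, adjusted p = 0.00586). It was also lower in *AGO1* (-1.63) and *AGO1/2* knockout cells (-1.48) than in the same wild-type libraries. *LNCAROD* fell from 2.41, 2.17 and 3.62 CPM to 0.313, 0.486 and 0.279 CPM (-2.91), and *LMNTD2-AS1* (-2.75) and ENSG00000261026 (-5.03, from -6.09 to -4.47 with a library left out) were lower as well. ENSG00000283907 on chromosome 19 rose (4.26, adjusted p = 0.000556), but its 3 knockout libraries ranged from 41.2 to 229 CPM, and the difference from 3.16 to 4.63 with a library left out. ENSG00000280800, which lies among repeated sequences on chromosome 21, ranged from 0.493 to 4.56 CPM in the knockout (3.27, from 1.90 to 3.98 with a library left out), and *ZBED9-AS1* was at 1.83.

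RNA of miRNA host genes was measured, though mature miRNAs were not. Of 42 tested, 5 were called higher and 5 lower, against 8.55% and 10.7% of all genes. Their median was 0.03 (-0.09 by total counts), and 2 were higher without *AGO2* knockout replicates 2 or 3 or wild-type replicate 2. By total counts 2 were higher and 5 lower. *MIR17HG*, the transcript that carries the miR-17 cluster, rose from 12.5, 9.02 and 13.1 CPM to 23.1, 22.9 and 18.2 CPM (0.89, SE 0.18, adjusted p = 0.0057). *DLEU2*, the host of miR-15a and miR-16, rose from 28.9, 17.3 and 25.3 CPM to 39.7, 41.9 and 39.9 CPM (0.76, SE 0.17, adjusted p = 0.00921). Both kept their calls with each library left out, and neither overlapped between the groups. *MIR23AHG* (-1.71), *MIR22HG* (-1.40) and *MIRLET7BHG* (-0.81) were called lower, and *PDE2A*, which hosts miR-139, differed by -2.81. With wild-type replicate 2 left out *PDE2A* was at -1.71, and the call of *MIR22HG* was lost (adjusted p = 0.0599).

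The small structural RNAs *RNU12* and *SNORD3A* had a higher mean in every knockout line than in wild-type cells. Of 25 tested, 12 were called higher and 3 lower, with a median of 0.50. *RNU12*, the U12 RNA of the minor spliceosome, had 0.815, 1.85 and 1.42 CPM in wild-type and 33.2, 22.8 and 26.5 CPM in *AGO2* knockout cells (4.34, adjusted p = 5.06e-07), and means of 59.8 and 56.0 CPM in *AGO1* and *AGO1/2* and 16.6 CPM in *AGO1/2/3* knockout cells. *SNORD3A*, the U3 RNA of ribosomal RNA processing, had 1610, 2040 and 2040 CPM and 12000, 9350 and 10600 CPM (2.49, adjusted p = 1.17e-06), with 14200 CPM in *AGO1* knockout cells. Both RNAs were thus high in a line that keeps AGO2. snoRNAs together took 0.275% to 0.362% of counts in wild-type and 0.996% to 1.29% in *AGO2* knockout libraries. Many of these genes belong to families of near-identical copies, so the division of reads among them is uncertain, and the part of library preparation was not tested.

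The let-7 miRNAs are abundant in differentiated cells, and a list of messages known as their targets was examined. Of 35 tested members, 9 were called higher and 1 lower, against 8.55% and 10.7% of all genes. The median was 0.24, and by total counts alone 3 were higher and 2 lower. The count of higher members was 5 without wild-type replicate 2, 2 without *AGO2* knockout replicate 2 and 4 without replicate 3. *HMGA2*, a chromatin protein gene, had 412, 488 and 425 CPM in wild-type and 623, 658 and 562 CPM in *AGO2* knockout cells (0.48, SE 0.10, adjusted p = 0.00688), and it was called with each library left out. *DICER1*, given above, is also a let-7 target. *CDC25A* (1.23) and *E2F2* (1.0), both cell cycle genes, were called higher, and *E2F5* lower (-0.55). All 3 calls were lost without wild-type replicate 2 and without *AGO2* knockout replicates 2 or 3, and without wild-type replicate 2 *CDC25A* was at 0.92 (adjusted p = 0.0926) and *E2F2* at 0.58 (adjusted p = 0.0919). *MYC* (0.19), *NRAS* (0.26) and *LIN28B* (0.44) missed the threshold.

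*HOXB8*, the gene with the slicing site printed above, had 27.3, 17.9 and 33.8 CPM in wild-type and 35.5, 48.3 and 39.0 CPM in *AGO2* knockout cells. The groups did not overlap, and the difference was 0.64 (SE 0.18, adjusted p = 0.0245). Without wild-type replicate 2 it was 0.40 (adjusted p = 0.0922), and the call was also lost without wild-type replicate 1 or *AGO2* knockout replicates 2 or 3. In *AGO1/2* over *AGO1* knockout cells *HOXB8* differed by 0.88 (adjusted p = 0.00239). In that comparison 8 of the 17 tested members of its list were called higher and none lower, with a median of 0.54. *HOXB7*, whose annotated span covers *HOXB8* on the same strand so that reads could be divided between them, rose by 0.81 (adjusted p = 0.0045), and *HOXA9*, a HOX gene of another cluster, by 0.75 (SE 0.10, adjusted p = 0.000304), from 44.4, 42.8 and 47.0 CPM to 72.0, 74.7 and 79.0 CPM. Of 17 tested genes of this list, 5 were higher and 1, *HOXB9*, was lower (-0.98), a call lost without wild-type replicate 2 or *AGO2* knockout replicates 2 or 3.

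Across all protein-coding genes, an 8-base seed match in the 3′-UTR made little difference to the median change. The matches were searched in the longest annotated 3′-UTR for 9 miRNA families, and the family sequences used for the first 2 are shown with their seeds in capitals.
hsa-let-7a-5p: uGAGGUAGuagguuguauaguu
hsa-miR-17-5p: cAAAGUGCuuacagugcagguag

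The 829 genes with a let-7 match had in *AGO2* knockout cells a median of 0.04 on the log2 scale, against 0.03 for the 13944 without one. For miR-17 the medians were 0.07 (870 genes) and 0.03, and for miR-125 they were -0.02 (1059 genes) and 0.04. The largest difference was for miR-196, at 0.10 between 280 genes with a match and the rest, with 0.07, 0.09 and 0.10 by knockout library. Of the genes with this match 18.9% were called higher and 7.86% lower, against 11.3% and 11.5% of those without. In *AGO1/2* over *AGO1* knockout cells the miR-196 medians were -0.01 with and 0.04 without a match. With the 3′-UTR of the canonical transcript in place of the longest, the difference in *AGO2* knockout cells was 0.10, over 225 genes. With a 7-base match the miR-196 difference was 0.01, over 1519 genes. Where AGO1, AGO2 and AGO3 were all lost, the miR-17 medians were 0.27 and 0.03. Genes with a match had longer 3′-UTRs (a median of 3420 bases for let-7 against 1744), and over 5 classes of 3′-UTR length with like numbers of genes the medians ranged from 0.03 to 0.04 in *AGO2* knockout cells and from -0.17 to 0.17 in *AGO1/2/3* knockout cells. These values are descriptions and were not tested.

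**Figure D4:**
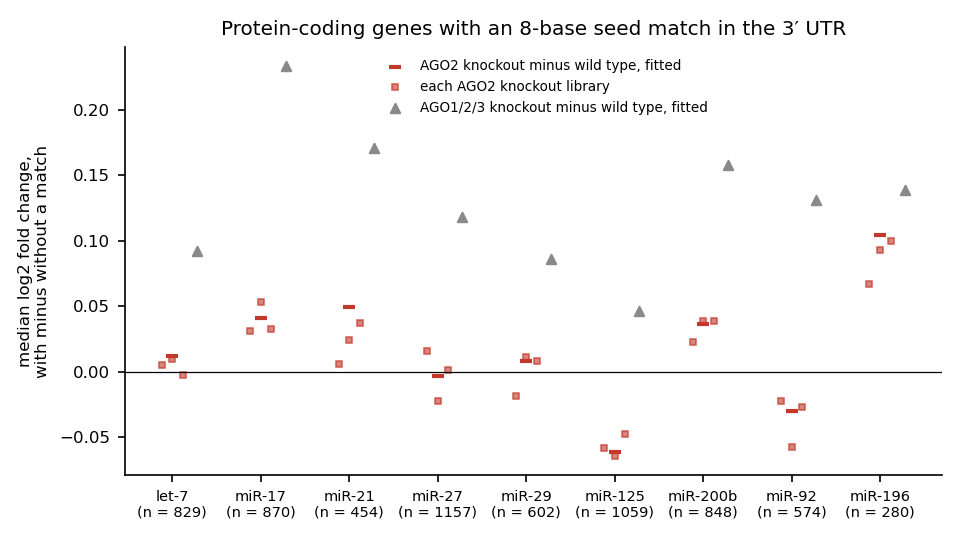
The plot gives the median log2 fold change of protein-coding genes with an 8-base seed match in the 3′-UTR minus that of genes without one, for 9 miRNA families with the number of genes that hold a match. Red dashes are the fitted values of *AGO2* knockout minus wild-type cells, red squares the 3 knockout libraries and grey triangles the *AGO1/2/3* knockout, and the red symbols lie between -0.06 and 0.10 while the triangles reach 0.23.

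A further list held 22 genes that the study picked for a strong AGO2-bound cluster in the 3′-UTR, a criterion of binding. Of these, 3 were called higher (*TMEM245*, *PHLPP2* and *TM2D2*) and 2 lower (*DDIT4* and *TMEM184A*), with a median of 0.02. Over all genes tested 8.55% were higher and 10.7% lower. By total counts 1 of the 22 was higher and 6 were lower, with a median of -0.10, so the balance of calls depended on the scaling. By total counts 3.21% of all genes were higher and 15.7% lower. The calls of *PHLPP2* and *TM2D2* were lost without *AGO2* knockout replicates 2 or 3 or wild-type replicates 1 or 2, and that of *TM2D2* also without *AGO2* knockout replicate 1 (adjusted p from 0.0563 to 0.174 over both). *TMEM245*, the host gene of miR-32, rose from 98.2, 76.8 and 111 CPM to 138, 142 and 140 CPM (0.56, SE 0.11, adjusted p = 0.00518) with each library left out, and it also differed by 1.19 between *AGO1/2* and *AGO1* knockout cells. *DDIT4*, a stress-induced inhibitor of mTOR, had 150, 324 and 122 CPM in wild-type and 29.6, 49.2 and 115 CPM in *AGO2* knockout cells (-1.62, adjusted p = 0.0465, and -2.36 without *AGO2* knockout replicate 3), and its call was lost without wild-type replicates 1 or 2 or *AGO2* knockout replicates 1 or 2 (adjusted p from 0.0525 to 0.199).

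AGO2 was also lost a second time in the series, on a background without AGO1. The comparison of *AGO1/2* with *AGO1* knockout cells shares no library with that of *AGO2* knockout with wild-type cells, and all its files carry the same header. It had 2637 genes higher (11.6%) and 1816 lower (7.96%). Of the 1952 genes called higher in *AGO2* knockout cells, 299 (15.3%) were also called higher there and 174 (8.91%) lower. Of the 2447 called lower, 297 (12.1%) were lower and 318 (13.0%) higher. The 596 genes called in the same direction were 11.3% of the higher and 16.4% of the lower genes of the second comparison. Over all 22823 genes, Spearman's rank correlation between the 2 sets of fold changes was 0.05, a description across genes, which are not independent replicates. A test of the difference between the 2 effects called 4495 genes (19.7%), 8.27% in the positive and 11.4% in the negative direction, among them 1992 of the 4399 genes (45.3%) called in *AGO2* knockout cells.

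Genes that fell at least 2-fold with AGO2 loss in both settings numbered 108, against 14 that rose. In the first comparison alone 1122 genes were called at least 2-fold lower and 201 at least 2-fold higher. The same totals apply to the opposite changes given below. The examples named here beside *ANXA10* were chosen after their values were seen. *SEMA3A*, a secreted guidance factor gene, fell from a mean of 32.8 CPM in wild-type to 2.96 CPM in *AGO2* knockout cells and from 243 CPM in *AGO1* to 13.5 CPM in *AGO1/2* knockout cells (-3.47 and -4.17). *NRP1*, which encodes a receptor for semaphorins and VEGF, fell by 2.31 and 3.01 on the log2 scale, and *ANGPT2*, an angiopoietin gene, by 2.83 and 3.56. In the first comparison *NRP1* was at -1.21 without wild-type replicate 2. *SECTM1* rose in both (1.53 and 2.62), as did *KIAA0319* (1.64 and 1.61) and *TLR3*, a sensor of double-stranded RNA (1.24 and 1.95). The first of the *TLR3* calls was lost without wild-type replicate 2 (0.87, adjusted p = 0.0708).

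Opposite changes of at least 2-fold were found for 86 genes that fell with AGO2 loss in wild-type and rose in *AGO1* knockout cells, and for 13 with the reverse pattern. *PRKAA2* and *DCLK1* were in the first group, at 3.93 and 3.96 in the second comparison. *SPARC* (-3.08 and 3.64) and *CCN2* (-1.96 and 2.44) were as well. *SLC1A3*, a glutamate transporter gene, rose by 1.11 and then differed by -5.40, with 14.7 and 31.7 CPM in wild-type and *AGO2* knockout cells and 9.78 and 0.225 CPM in *AGO1* and *AGO1/2* knockout cells. *FABP5*, a fatty acid binding protein gene, rose by 1.44 and then differed by -1.40.

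**Figure D5:**
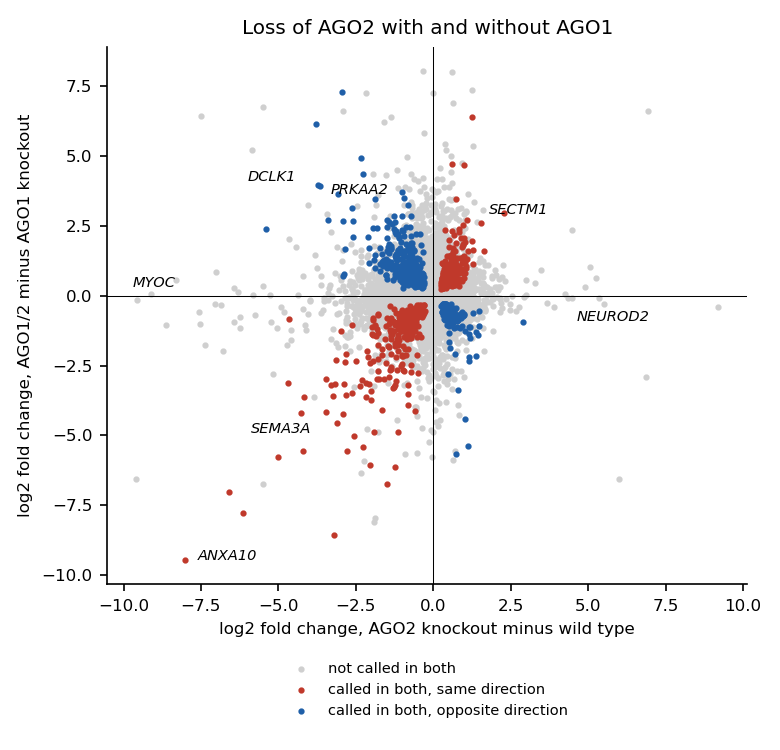
Each point is 1 of the 22823 genes tested, with the log2 fold change of *AGO2* knockout minus wild-type cells on the x axis and that of *AGO1/2* minus *AGO1* knockout cells on the y axis, red where both were called in the same direction and blue where they were called in opposite directions. Red and blue points fill all 4 quadrants (299 and 297 red, 174 and 318 blue), and *MYOC* and *NEUROD2* lie close to 0 on the y axis.

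Median changes by chromosome arm were small. The lowest, over all genes tested on an arm, were those of 19q (-0.12 over 827 genes, 3.26% higher and 16.1% lower), 16p (-0.12 over 640 genes) and 19p (-0.10 over 699 genes). Over genes averaging 1 CPM or more these medians were -0.08, -0.08 and -0.04. The long arm of chromosome 8, which holds *AGO2*, had a median of 0.02 over 356 such genes in *AGO2* knockout cells and -0.52 in *AGO1/2* over *AGO1* knockout cells.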

How the data were processed

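RNA of HCT116 cells was sequenced with a strand-specific total RNA kit, and the authors aligned reads to hg38 with STAR 2.5.3a and quantified genes with Salmon 0.11.0, per the submitters' processing notes. The deposited values are estimated counts per gene and library (30.8% to 33.8% of values were not whole), which Salmon divides among genes that share sequence. They were rounded to whole numbers here. The word quasi stands in the headers of the *AGO2* knockout files alone, and its meaning is not given in the sources used here. The 8 other samples of the series, protein-bound RNA libraries, were not analysed here.

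Of 57875 genes listed, 57167 were matched to GENCODE 44. After edgeR's filterByExpr 22842 genes were tested with edgeR 4.0.16 (R 4.3.3, limma 3.58.1) by the quasi-likelihood F-test, with TMM normalization, 1 mean for each of 5 lines over 15 libraries, and Benjamini-Hochberg adjustment. The 19 tested genes of chromosome Y were left out afterwards. DESeq2 1.42.0, other scalings and filters, the 6 libraries alone, a replicate block, protein-coding genes alone and each library left out in turn were alternatives. Counting intervals are exact at 95%, and the floor was 3 counts per library. Tables and figures were made with Python 3.11.15, pandas 2.3.3, scipy 1.17.1 and matplotlib 3.10.9. Of 105 pairs of libraries 0 held identical values.

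Tested on simulated data for *AGO2* knockout against wild-type cells, with 22842 genes, edgeR recovered 79 of 100 genes changed 2-fold and 99 of 100 changed 4-fold, with 8 false calls. On the same data DESeq2 recovered 88 of 100 and 99 of 100, with 32 false calls. The simulation changed only 200 genes, evenly up and down, and held no library that stood apart as wild-type replicate 2 did. Its counts of false calls therefore need not hold for the real libraries. The comparison and the gene lists were chosen with earlier results of these data known. Named genes were the Argonaute and TNRC6 genes, the 12 protein-coding genes with the largest and the 12 with the smallest fold change among called genes without overlap between groups and with a mean of at least 2 CPM in the higher group, 3 lncRNAs each way by the same criteria, up to 4 members of each list (the called ones with the largest change), and *HOXB8*, *DICER1* and *HMGA2*. Further list members were named after their values were seen. Medians and counts of lists are descriptions. Some genes of the lists and of the largest changes are not reported here by name. Same-numbered wild-type and knockout libraries did not deviate together (correlations of -0.12, -0.03 and 0.09), so they were not treated as pairs.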

Additional observations from a re-analysis of the deposited data

Results flagged for a closer look

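For 19 of 40 named genes tested, the effect of losing AGO2 with AGO1 present (*AGO2* knockout minus wild type) differed from its effect without AGO1 (*AGO1/2* minus *AGO1* knockout). Over all genes tested 19.7% differed in this way. Most of the 40 were named for the size of the first effect, which is part of the difference tested, so their share is not a result and is not compared with that of all genes. The values are log2 differences between the 2 effects, with adjusted p-values of edgeR's interaction test, and the word quasi in the headers of the *AGO2* knockout files cannot be told apart from the first effect.

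Among genes that rose in *AGO2* knockout cells, the difference was 4.57 for *NEUROD2* (adjusted p = 1.19e-08), 2.55 for *FGF23* (adjusted p = 1.26e-07), 3.18 for *RPS6KA6* (adjusted p = 3.16e-06), 2.55 for *CABYR* (adjusted p = 0.00215), 2.02 for *PALLD* (adjusted p = 7.49e-06), 1.71 for *KCNJ3* (adjusted p = 0.00833) and 1.53 for *GALNT5* (adjusted p = 0.0348). It was 4.20 for ENSG00000283907 (adjusted p = 0.0038) and 1.60 for *ZBED9-AS1* (adjusted p = 0.0159). For *DICER1*, which was higher in both settings, it was 0.466 (adjusted p = 0.0373).

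Among genes that fell, the difference was -9.43 for *MYOC* (adjusted p = 1.81e-05), -3.83 for *ARHGEF25* (adjusted p = 8.04e-05) and -3.82 for *RNF150* (adjusted p = 0.000142). It was -7.59 for *PRKAA2* (adjusted p = 4.07e-10) and -7.69 for *DCLK1* (adjusted p = 7.01e-08), both of which rose in the second setting. It was -6.71 for *HKDC1* (adjusted p = 0.00311) and -5.27 for *LCN2* (adjusted p = 0.0488), both highest in wild-type replicate 2. The *AGO2* gene itself differed by -0.463 (adjusted p = 0.0335) and *AGO4* by -1.25 (adjusted p = 0.0146). The fitted value of *MYOC*, which had 0 counts in the *AGO2* knockout, depends on the prior count and is no bound.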

How the results depend on the processing

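The number of genes called in *AGO2* knockout against wild-type cells depended on which libraries entered. Against 1952 higher and 2447 lower, leaving out each library in turn gave 389 to 2064 higher and 1131 to 2949 lower, the lowest counts without *AGO2* knockout replicate 2 and the highest without wild-type replicate 3. The 6 libraries alone gave 528 and 1331, scaling by total counts 733 higher, and a minimum of 2-fold 201 and 1122. With the replicate number as a block the counts were 1604 and 2185, and 514 genes were called in the same direction in both comparisons of AGO2 loss, against 596 without the block. No *AGO2* knockout library correlated best with the wild-type library of its number, so the block is no pairing. Of 129 called named genes 60 kept their call with every library left out, 58 lost it without wild-type replicate 2, 55 in the 6 libraries alone and 10 under the block, and 0 changed sign. Among named genes that were not called, *AGO3* (-0.05) ranged from -0.15 to 0.0409 with a library left out, with the highest value without wild-type replicate 2. *TNRC6B* (-0.00) ranged from -0.0837 to 0.0298, and was 0.0119 with DESeq2's size factors, 0.018 with DESeq2, 0.0375 with no filter, and 0.0202 with DESeq2 on the 6 libraries, an alternative chosen after seeing the data. The cause was not tested. With a median SE of 0.197, differences much below 2-fold in single genes were often not detectable.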
